A study of Mus musculus with 42 samples.

Results

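Superoxide is made and removed by small sets of enzymes, and 9 of their genes were followed in the lungs of newborn mice: the superoxide dismutase genes Sod1, Sod2 and Sod3, the catalase gene Cat, and the NADPH oxidase genes Cybb, Cyba, Ncf1, Nox4 and Duox1. They are 9 of the 18194 genes tested. A gene was represented by the probe set that carries its symbol alone and has the highest mean over all 42 arrays, a choice that used levels and not the groups. NADPH oxidases pass electrons from NADPH across a membrane to oxygen and so make superoxide or hydrogen peroxide. The phagocyte enzyme is built from the catalytic subunit encoded by Cybb, its membrane partner Cyba and cytosolic organisers such as Ncf1, while Nox4 works with Cyba and without the organisers, and Duox1 is an oxidase of airway epithelium. Superoxide dismutases turn superoxide into hydrogen peroxide in the cytosol (SOD1, copper and zinc), in mitochondria (SOD2, manganese) and outside cells (SOD3, copper and zinc), and catalase, a peroxisomal enzyme, splits hydrogen peroxide into water and oxygen.

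The arrays fall into 14 groups of 3 pups, each array holding whole-lung RNA of 1 pup. Pups were Nrf-/- knockouts (KO), which lack the gene Nfe2l2 for the transcription factor NRF2, or Nrf+/+ wild types (WT), and the deletion was in the whole animal as far as the labels say. Both genotypes were exposed to hyperoxia (at least 95% oxygen, 23 h a day, in a chamber with foster dams) for 1, 2 or 3 days and taken at P2, P3 and P4, or kept in room air and taken at P1 (the day of birth), P2, P3 and P4. The labels used here name neither strain nor sex. The questions are which of the producers and removers differed after hyperoxia, between the genotypes and with age, and whether the effect of hyperoxia differed between the genotypes.

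Nfe2l2 had group means of 4.35 to 4.89 in KO lungs and 10.5 to 11.3 in WT lungs on the log2 scale. Lung markers had high signals in every array, with 42-array means of 14.7 for Sftpc and 14.4 for Ager. Array medians lay between 6.31 and 6.40, and arrays of a group correlated across genes with r of 0.959 to 0.997. In 18 of the 42 arrays the score of a list of liver, heart, skeletal muscle, thymus or fat genes was over 2 log2 units above its median. They were 0 of 9 KO hyperoxia arrays, 4 of 9 WT hyperoxia arrays, 4 of 12 KO air arrays and 10 of 12 WT air arrays, so values without them, or with those scores in the fit, stand beside the calls they end. All 3 WT air arrays at P1 and all 3 at P2 were high in other tissues. Comparisons with those groups therefore have no value without such arrays, and some other groups kept 1 array. In whole lung, fewer cells of a type and less RNA per cell cannot be told apart.

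Mean Sod1 on the probe set used was lower in KO in all 7 pairs of groups, and called in 6. After 3 days of hyperoxia Sod2 rose and Cat fell in KO. For that reason promoter sequences of the 3 removers with an entry in the RefSeq table (GRCm38.p6) are shown. Each is the stretch of 250 bases before the transcription start, on the gene's own strand, at chr16:90220512-90220761 for Sod1 (plus strand), chr17:13007589-13007838 for Sod2 (plus strand) and chr2:103485154-103485403 for Cat (minus strand). Capitals mark every match to the antioxidant response element core TGACNNNGC, the GC box GGGCGG or the TATA box TATAAA on either strand, and matches that overlap run together.
Sod1: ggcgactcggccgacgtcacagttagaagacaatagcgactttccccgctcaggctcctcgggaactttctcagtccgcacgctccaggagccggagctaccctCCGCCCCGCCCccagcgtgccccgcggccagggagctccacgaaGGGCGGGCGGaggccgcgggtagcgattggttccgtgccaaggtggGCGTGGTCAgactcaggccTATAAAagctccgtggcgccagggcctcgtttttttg
Sod2: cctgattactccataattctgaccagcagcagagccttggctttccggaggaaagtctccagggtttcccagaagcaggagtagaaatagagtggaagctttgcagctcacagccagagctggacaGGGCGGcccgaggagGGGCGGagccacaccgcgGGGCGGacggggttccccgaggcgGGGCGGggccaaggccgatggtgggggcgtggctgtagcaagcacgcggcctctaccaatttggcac
Cat: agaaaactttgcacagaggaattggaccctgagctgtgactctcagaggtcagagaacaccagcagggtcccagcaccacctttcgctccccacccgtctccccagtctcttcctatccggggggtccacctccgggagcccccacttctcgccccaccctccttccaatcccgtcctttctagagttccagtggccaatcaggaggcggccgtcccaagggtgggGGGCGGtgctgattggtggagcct

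The table held promoters for 8 of the 9 members, all but Sod3, and the search covered 300 bases of each, 250 before and 50 after the start. The antioxidant response element core, the sequence NRF2 binds together with small MAF proteins, matched once among the members, in Sod1, where its letters read GCGTGGTCA on the printed strand with the first base at position -56. The same letters were matched in 12.4% of all 32851 promoters of that length. GC boxes, which SP-family factors bind, matched in Sod1, Sod2, Cat, Cyba, Ncf1 and Nox4 and in 35.7% of all promoters, and Sod2 held 4 of them that do not overlap. A TATA box was matched in Sod1 alone, against 13.6% of all promoters. The PU.1 core GAGGAAGT (3.2% of all promoters) and the NF-kB motif (1.2%) matched in none of the 8 windows. A match is a description of letters in this window.

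After 3 days of hyperoxia Sod2 and Sod3 transcripts were 2.00 to 2.70 times their air level in both genotypes. Sod2, the mitochondrial dismutase, read 11.96, 12.05 and 11.54 in the 3 KO lungs after 3 days of hyperoxia, against 10.48, 10.23 and 10.55 in KO lungs in air at P4. In WT lungs it read 12.01, 11.67 and 11.82 after 3 days of hyperoxia, against 10.71, 10.58 and 10.95 in air at P4. Every hyperoxia lung was above every air lung in both genotypes. Sod2 rose 2.70-fold in KO (log2 difference 1.43, SE 0.16, limma adjusted p = 2.86e-08) and 2.12-fold in WT (1.09, SE 0.16, adjusted p = 3.8e-06). All 4 Sod2 probe sets were called higher at day 3 in both genotypes.

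Sod3, the extracellular dismutase, read 8.89, 8.82 and 8.95 in KO lungs after 3 days of hyperoxia, against 7.41, 7.95 and 8.08 in KO lungs in air at P4. The WT lungs read 9.16, 8.85 and 9.22 after 3 days of hyperoxia and 7.99 to 8.25 in air at P4 (mean 8.08, SD 0.15). Hyperoxia and air lungs did not overlap in either genotype. Sod3 rose 2.10-fold in KO (1.07, SE 0.16, limma adjusted p = 2.71e-06) and 2.00-fold in WT (1.00, SE 0.16, adjusted p = 9.83e-06). Averaged over the 3 days in KO, Sod3 was 0.36 (adjusted p = 0.00428), and with the other-tissue scores in the fit it was 0.36 and missed the threshold (adjusted p = 0.0702). At days 1 and 2 neither Sod2 nor Sod3 passed the test in either genotype. The nearest was Sod2 in WT at day 2, with 11.50, 10.72 and 11.05 in hyperoxia and 10.65, 10.60 and 10.48 in air (0.51, adjusted p = 0.0571).

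Sod1, the cytosolic dismutase, did not differ detectably between hyperoxia and air on the probe set used. Its log2 difference averaged over 3 days was -0.01 in KO (limma adjusted p = 0.884) and 0.04 in WT (adjusted p = 0.606). KO lungs after 3 days of hyperoxia read 11.62, 11.61 and 11.62, against 11.76, 11.63 and 11.80 in air, and the WT lungs read 12.15, 12.14 and 12.09 against 12.03, 12.09 and 12.13. The 3 KO hyperoxia lungs lay just under the lowest KO air lung (-0.11, limma adjusted p = 0.295), and the WT groups overlapped. Of 5 Sod1 probe sets, 1 was called lower in KO over the 3 days and 1 at day 3. In WT 0 were called in either comparison.

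Cat went the other way from Sod2 and Sod3 at day 3. It read 10.34, 10.86 and 10.62 in KO lungs after 3 days of hyperoxia, against 11.47, 11.20 and 11.31 in KO lungs in air at P4. The groups did not overlap, and Cat fell by 0.72 on the log2 scale (SE 0.15, 1.64-fold lower, limma adjusted p = 0.00035). In WT the values were 11.04, 11.34 and 11.11 after hyperoxia and 11.52, 11.64 and 11.47 in air. These groups did not overlap either, but the difference of -0.38 missed the threshold (adjusted p = 0.0601), which it passed in 10 of 19 alternative settings. Of 12 airway epithelial markers, 5 were called lower and 0 higher at day 3 in KO (list median 0.04). In WT 6 were called lower and 0 higher (list median -0.38). At that day 31.7% of all genes were called in KO and 27.5% in WT. The part of these markers in the Cat result was not tested. Both Cat probe sets were called lower at day 3 in KO, and 1 of 2 in WT. Averaged over the 3 days Cat did not pass in KO (-0.15, adjusted p = 0.244) or in WT (-0.14, adjusted p = 0.266).

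**Figure D1:**
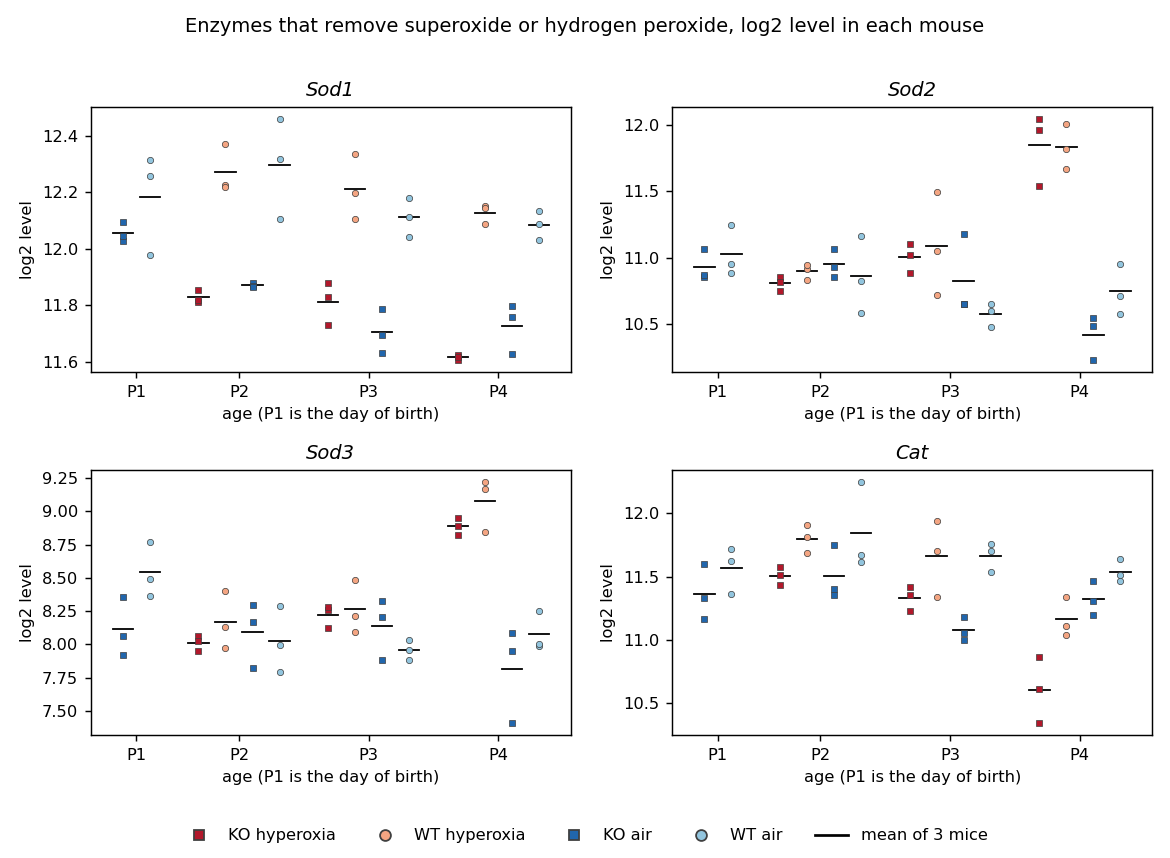
Log2 level of the 4 removers in each mouse (points) with group means of 3 mice (bars), by age. Within each age the order from the left is KO hyperoxia, WT hyperoxia, KO air and WT air, and at P1 all pups were in air. At P4 the Sod2 points of both hyperoxia groups lie above 11.5 and the air points at or below 10.95, while the KO hyperoxia points of Cat lie lowest, at 10.34 to 10.86.

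Among the producers, Cyba rose in hyperoxia in both genotypes. In KO lungs Cyba, which stabilises the catalytic subunits in the membrane, read 11.49, 11.36 and 11.40 after 3 days of hyperoxia, against 10.99, 10.69 and 10.90 in air (0.56, limma adjusted p = 1.51e-05). In WT lungs it read 11.64, 11.44 and 11.50, against 11.06, 11.01 and 11.06 in air (0.48, adjusted p = 0.000134). The hyperoxia and air groups did not overlap in either genotype at that day. Averaged over the 3 days Cyba rose by 0.32 in KO (SE 0.05, adjusted p = 3.45e-05) and by 0.36 in WT (SE 0.05, adjusted p = 5.17e-06). It also passed at day 2 in KO (0.38, adjusted p = 0.00541) and at day 1 in WT (0.35, adjusted p = 0.0228). Without the arrays high in other tissues 1 WT lung was left in hyperoxia and 1 in air at P4. Cyba at day 3 in WT was then 0.43 and no longer called.

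Nox4, a constitutively active oxidase that is abundant in mesenchymal and endothelial cells, rose on average over the 3 days by 0.49 in KO (SE 0.11, limma adjusted p = 0.0019) and by 0.42 in WT (SE 0.11, adjusted p = 0.00653). In KO lungs it read 9.66, 9.60 and 9.62 after 1 day of hyperoxia, against 8.61, 9.20 and 8.18 in air at P2 (0.96, SE 0.20, 1.95-fold, adjusted p = 0.00196). After 2 days the KO values were 10.42, 10.07 and 10.39, against 9.74, 9.50 and 9.64 in air at P3 (0.66, adjusted p = 0.0234). After 3 days they were 9.46, 9.56 and 10.13, against 10.12, 9.64 and 9.85 in air at P4, and these overlapped (-0.16, adjusted p = 0.598). The KO groups were thus apart at days 1 and 2 and mixed at day 3. In WT lungs Nox4 read 9.72, 9.70 and 9.42 after 1 day of hyperoxia, against 8.59, 9.16 and 9.36 in air (0.57, adjusted p = 0.0941). After 3 days the WT values were 9.92, 10.20 and 10.35, against 9.61, 9.71 and 9.40 in air (0.58, SE 0.20, adjusted p = 0.0274). The WT groups were apart on both days, and at day 2 Nox4 did not pass in WT. Without the arrays high in other tissues Nox4 in KO was 0.28 over the 3 days, 0.43 at day 1 and 0.55 at day 2, and lost its calls. KO air then kept 1 lung at P2 and 1 at P3. Nox4 in WT at day 3 was 0.48, with 1 lung left in each group, and lost its call too. Over the 3 days there is no such WT value, since all 3 WT air lungs at P2 were high in other tissues. With the other-tissue scores in the fit the KO mean was 0.18 (adjusted p = 0.349). In KO hyperoxia 10 of 10 thymus genes and 7 of 12 skeletal muscle genes were called lower over the 3 days. Of 10 smooth muscle and fibroblast markers, 1 was higher and 1 lower in KO and 1 higher and 4 lower in WT, and their part in the result was not tested. Beside all these counts, 7.28% of all genes were called lower and 13.5% higher in KO, and 9.53% and 14.4% in WT.

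Ncf1, the cytosolic organiser of the phagocyte oxidase, read 8.62, 8.41 and 8.48 in KO lungs after 3 days of hyperoxia, against 7.85, 7.74 and 7.99 in air. The groups did not overlap, and Ncf1 rose by 0.64 (limma adjusted p = 0.000156). In WT the values were 8.61, 8.20 and 8.41, against 8.20, 8.11 and 8.11 in air, with ranges that met at their edge and no call (0.26, adjusted p = 0.121). Over the 3 days together Ncf1 rose by 0.26 in KO (SE 0.07, adjusted p = 0.00802) and by 0.20 in WT (SE 0.07, adjusted p = 0.0374), the WT call being held in 15 of 31 alternative settings. When arrays high in other tissues were left out, the KO value of Ncf1 over the 3 days was 0.18 and no longer called. That left 1 KO air lung at P2 and 1 at P3. With the other-tissue scores in the fit the KO value of Ncf1 was 0.037 (limma adjusted p = 0.866).

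Cybb, the catalytic subunit of the phagocyte oxidase, did not pass the test for hyperoxia on any day. Its mean difference over 3 days was 0.27 in KO (limma adjusted p = 0.118) and 0.26 in WT (adjusted p = 0.130). Duox1 had a low signal throughout, 5.21 to 6.33, where the 10th percentile of all probe sets was 4.27 on the median array. Its mean level stood at percentile 24.2 of the genes tested. It was called higher in KO after 3 days of hyperoxia, with 5.79, 6.33 and 5.65 against 5.53, 5.51 and 5.39 in air (0.45, SE 0.17, adjusted p = 0.0408). That call held in 7 of 17 alternative settings, and with the other-tissue scores in the fit it was 0.44 (adjusted p = 0.0501).

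**Figure D2:**
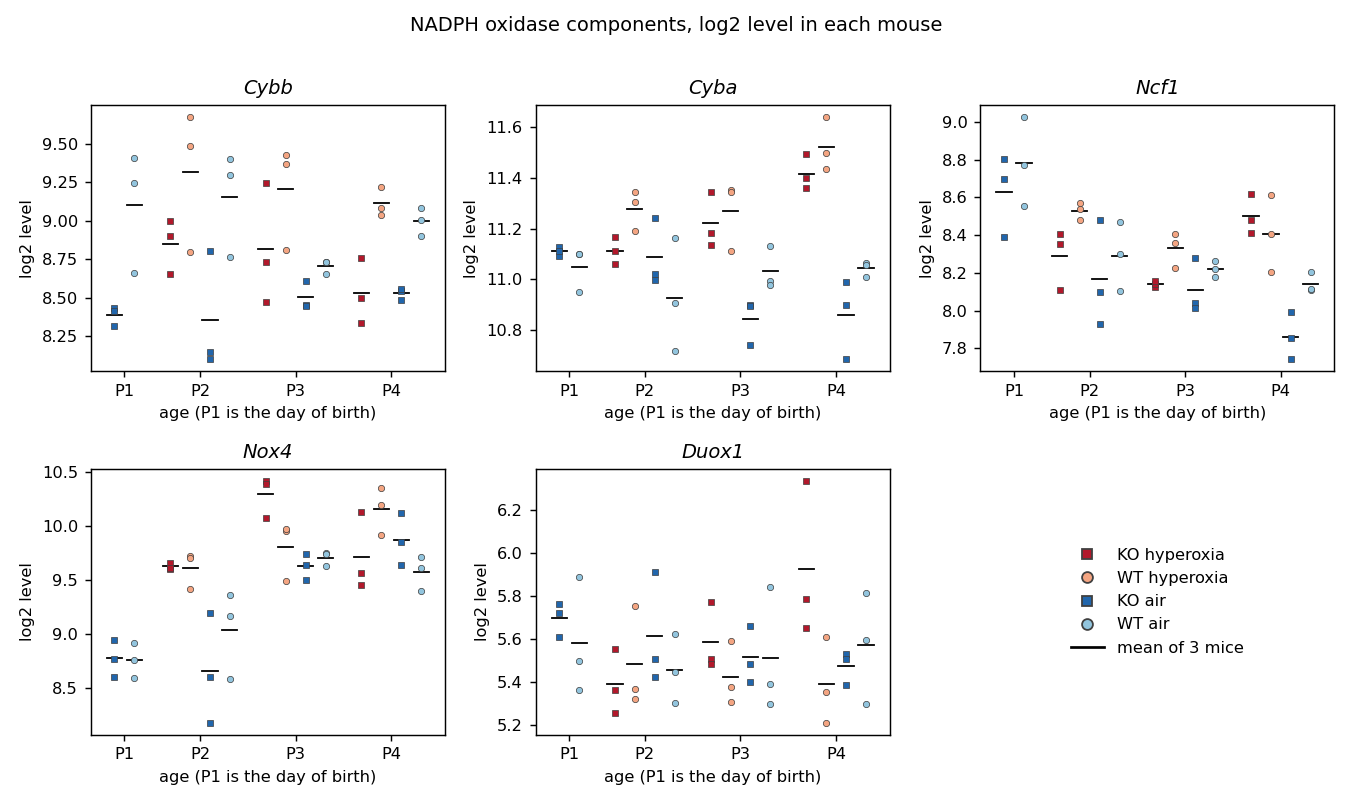
Log2 level of the 5 producers in each mouse (points) with group means of 3 mice (bars), by age, in the same order of groups as in the plot of the removers. Cyba lies highest in the hyperoxia groups at P4, with KO points from 11.36 to 11.49 and WT points from 11.44 to 11.64, and the Cybb points of KO groups lie mostly under those of WT groups.

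Taken over 3 days, 5 of the 9 members were called higher in hyperoxia in KO (Sod2, Sod3, Cyba, Ncf1 and Nox4) and 0 lower, where 20.8% of all genes were called, 13.5% higher and 7.28% lower. In WT the count was also 5 of 9 higher and 0 lower, with the same 5 genes, where 23.9% of all genes were called, 14.4% higher and 9.53% lower. The median difference of the members was 0.27 in KO and 0.26 in WT, beside 0.0064 and 0.0061 over all genes. Removers contributed 2 of 4 and producers 3 of 5 in each genotype. By single days, 1 member was called in KO at day 1 (9.06% of all genes), 2 at day 2 (12.6%) and 6 at day 3 (31.7%). In WT the numbers were 1 at day 1 (4.33%), 0 at day 2 (5.40%; 3 members had an unadjusted p under 0.05) and 4 at day 3 (27.5%).

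Macrophage markers moved with hyperoxia too. Averaged over the days, 10 of 17 measured markers were called higher and 0 lower in KO, and 12 higher and 1 lower in WT. The shares over all genes were 13.5% higher and 7.28% lower in KO, and 14.4% higher and 9.53% lower in WT. The mean deviation of the 17 markers ran from -0.34 to 0.46 in KO hyperoxia lungs, 0.08 to 0.82 in WT hyperoxia lungs, -0.69 to -0.11 in KO air lungs and -0.31 to 0.38 in WT air lungs. At day 3, 6 of 15 neutrophil markers were higher in KO and 5 of 15 in WT. At that day 31.7% of all genes were called in KO and 27.5% in WT. The part of the neutrophil markers in the results was not tested. With the macrophage score as a covariate, an alternative chosen after seeing the data, Sod2 at day 3 was 1.48 in KO (limma adjusted p = 0.000135) and 1.12 in WT (adjusted p = 0.00053), and Sod3 was 0.93 (adjusted p = 0.00937) and 0.88 (adjusted p = 0.00416). Cat in KO at day 3 was -0.87 (adjusted p = 0.0103). Cyba over the 3 days was 0.14 in KO (adjusted p = 0.252) and 0.19 in WT (adjusted p = 0.0553), Nox4 0.51 (adjusted p = 0.0831) and 0.43 (adjusted p = 0.0945), and Ncf1 0.06 (adjusted p = 0.805) and 0.02 (adjusted p = 0.935).

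The sexes of the pups differed between the KO groups at P4 as far as the sex-linked transcripts show. The Y-linked gene Eif2s3y averaged 9.60 in KO lungs after 3 days of hyperoxia and 4.14 in KO lungs in air at P4. With a score of sex-linked genes as covariate the KO differences at day 3 were 1.40 for Sod2 (limma adjusted p = 5.66e-07), 1.15 for Sod3 (adjusted p = 6.73e-06), -0.61 for Cat (adjusted p = 0.00437) and 0.56 for Cyba (adjusted p = 9.77e-05). Duox1 was 0.47 with that covariate and lost its call (adjusted p = 0.0622).

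**Figure D3:**
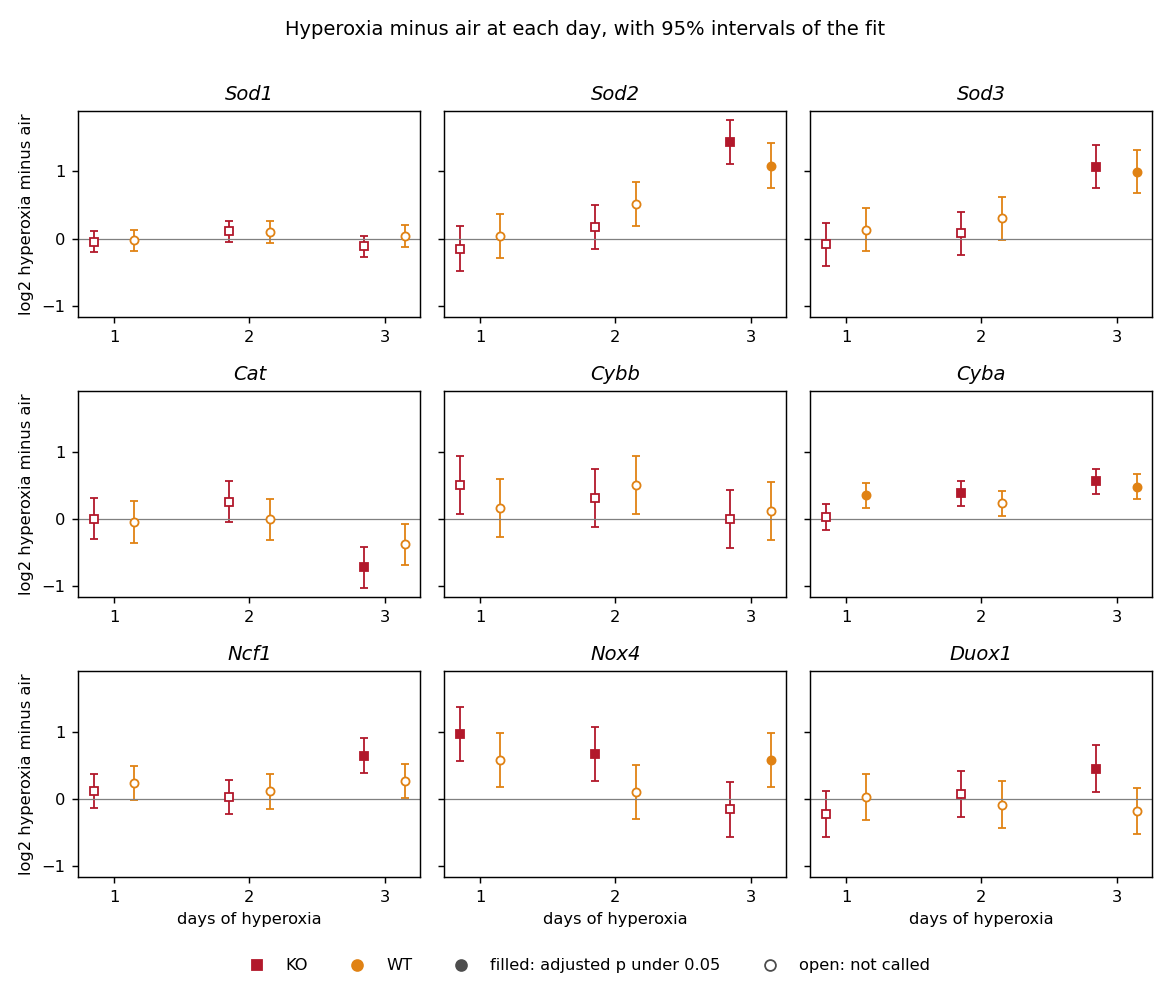
Hyperoxia minus air on the log2 scale after 1, 2 and 3 days for each of the 9 genes, with 95% intervals of the fit, KO squares left of WT circles. Filled symbols passed an adjusted p under 0.05. Sod2 and Sod3 stand near or above 1 at day 3 in both genotypes, and Cat stands below 0 at day 3.

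Whether KO and WT responded differently was tested as an interaction. It was called for 0 of 9 members in the mean over 3 days (1.19% of all genes called), at day 1 (2.69%), at day 2 (1.76%) and at day 3 (0.561%). At an unadjusted p under 0.05 there were 0, 1, 0 and 3 members. The 3 at day 3 were Nox4, with a KO minus WT difference in effect of -0.73 (95% interval -1.30 to -0.16, limma adjusted p = 0.202), Duox1 at 0.63 (0.14 to 1.12, adjusted p = 0.199) and Ncf1 at 0.38 (0.01 to 0.74, adjusted p = 0.313). For Sod2 the difference at day 3 was 0.35 (-0.12 to 0.81) and for Cat -0.34 (-0.77 to 0.09), so the intervals hold both no difference and one of over 0.7 log2 units. Cat, Ncf1 and Duox1, which passed at day 3 in KO and not in WT, are therefore not shown to respond differently in the genotypes.

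Between the genotypes Sod1 was lower in KO at every age and exposure. In hyperoxia it read 11.61 to 11.88 in 9 KO lungs (median 11.81) and 12.09 to 12.37 in 9 WT lungs (median 12.20), with no overlap. Averaged over the days the KO minus WT difference was -0.45 (SE 0.04, 0.732 of the WT level, limma adjusted p = 8.01e-09). In air it read 11.63 to 12.09 in 12 KO lungs (median 11.83) and 11.98 to 12.46 in 12 WT lungs (median 12.12), and the mean difference was -0.33 (SE 0.04, adjusted p = 1.79e-07). At the day of birth the KO values of 12.03, 12.04 and 12.09 lay within the WT values of 11.98, 12.31 and 12.26 (-0.13, adjusted p = 0.330), and at P2, P3 and P4 the groups did not overlap (-0.42, adjusted p = 0.000443; -0.41, adjusted p = 0.000259; -0.36, adjusted p = 0.016). Sod1 was thus below WT in 7 of 7 pairs of groups, called in 6 and without overlap in 6.

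With the macrophage score as covariate the KO minus WT difference of Sod1 was -0.44 in hyperoxia (limma adjusted p = 4.14e-05) and -0.32 in air (adjusted p = 0.0013). With the other-tissue scores Sod1 was -0.44 (adjusted p = 4.12e-07) and -0.35 (adjusted p = 0.000332). The probe set used for Sod1 is of the kind whose probes can match several transcripts. Of 5 Sod1 probe sets, 4 were called lower in KO in hyperoxia and 3 in air. The second brightest gave -0.18 in air (adjusted p = 0.00693).

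Cat was also lower in KO. Cat lies on chromosome 2, as does the deleted gene Nfe2l2, and whether this bears on the difference was not tested. In hyperoxia Cat read 10.34 to 11.57 in 9 KO lungs (median 11.35) and 11.04 to 11.94 in 9 WT lungs (median 11.69). In air it read 11.00 to 11.75 in 12 KO lungs (median 11.32) and 11.36 to 12.25 in 12 WT lungs (median 11.63). The ranges overlapped in both. The mean difference was -0.39 in hyperoxia (SE 0.09, limma adjusted p = 0.00241) and -0.34 in air (SE 0.08, adjusted p = 0.00106), with the largest single-day values of -0.56 at day 3 of hyperoxia (adjusted p = 0.0166) and -0.59 at P3 in air (adjusted p = 0.00473). The P3 value was -0.54 without the arrays high in other tissues (adjusted p = 0.128). In air 9 of 9 liver genes were called lower in KO (list median -2.50), 6 of 14 heart genes lower and 9 of 10 thymus genes higher (list median 0.49), while in hyperoxia none of these 3 lists had a call (liver median -1.74). Airway markers had 2 of 12 lower in KO in hyperoxia and 3 of 12 in air. Over all genes, 6.18% were called lower in hyperoxia and 14.4% in air. The highest Cat value of all, 12.25, was in a WT air lung at P2 that also had the highest liver score, and with the other-tissue scores as covariates Cat was -0.50 in hyperoxia (adjusted p = 1.12e-05) and -0.45 in air (adjusted p = 0.000677). With the macrophage score as covariate it was -0.32 (adjusted p = 0.153) and -0.26 (adjusted p = 0.171), and the second Cat probe set was -0.26 in hyperoxia (adjusted p = 0.0176) and -0.13 in air (adjusted p = 0.136).

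Of the producers, Cybb was lower in KO. It read 8.34 to 9.25 in 9 KO hyperoxia lungs (median 8.73) and 8.79 to 9.67 in 9 WT hyperoxia lungs (median 9.22), and 8.10 to 8.81 in 12 KO air lungs (median 8.45) and 8.65 to 9.41 in 12 WT air lungs (median 8.95). The median KO lung lay below the lowest WT lung in both exposures, though the ranges overlapped. The mean difference was -0.48 in hyperoxia (SE 0.12, limma adjusted p = 0.00775) and -0.55 in air (SE 0.11, adjusted p = 0.000234). Cybb lies on the X chromosome, and with the score of sex-linked genes as covariate it was -0.47 in hyperoxia (adjusted p = 0.00647) and -0.54 in air (adjusted p = 0.000179). With the macrophage score as covariate it was -0.17 (adjusted p = 0.634) and -0.23 (adjusted p = 0.390). With the other-tissue scores it was -0.61 (adjusted p = 0.000407) and -0.62 (adjusted p = 0.00265), and at P2 in air, where -0.80 was called (adjusted p = 0.00983), it was -0.76 (adjusted p = 0.186).

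Macrophage markers were lower in KO as well, 6 of 17 called lower and 0 higher in hyperoxia and 10 of 17 lower and 0 higher in air, with medians of -0.30 and -0.31. In air Marco was at -0.83, Siglecf at -0.59 and Csf1r, the receptor for macrophage growth factor, at -0.39. Of 10 general leukocyte markers, 5 were lower in KO in hyperoxia and 4 in air. The shares of all genes called lower in KO were 6.18% in hyperoxia and 14.4% in air. Ncf1 was called lower in KO in air (-0.17, SE 0.06, limma adjusted p = 0.0451), a call held in 11 of 37 alternative settings, and not in hyperoxia (-0.11, adjusted p = 0.349). Cyba, Nox4 and Sod3 did not pass in either exposure over the mean. Duox1 passed at day 3 of hyperoxia alone (0.53, limma adjusted p = 0.0412, held in 7 of 17 alternative settings). Without the arrays high in other tissues, which left 1 WT hyperoxia lung at that day, Duox1 was 0.57 and no longer called. Duox1 also lies on chromosome 2 with Nfe2l2, and whether this bears on the call was not tested.

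For Sod2 the probe sets disagreed on the genotype. The one used gave -0.05 in hyperoxia (limma adjusted p = 0.778) and -0.02 in air (adjusted p = 0.868). The second brightest gave -0.36 (adjusted p = 0.00807) and -0.41 (adjusted p = 0.000403), and the third brightest gave -0.39 (adjusted p = 0.00546) and -0.33 (adjusted p = 0.00336). No statement on Sod2 and genotype rests on one of them.

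**Figure D4:**
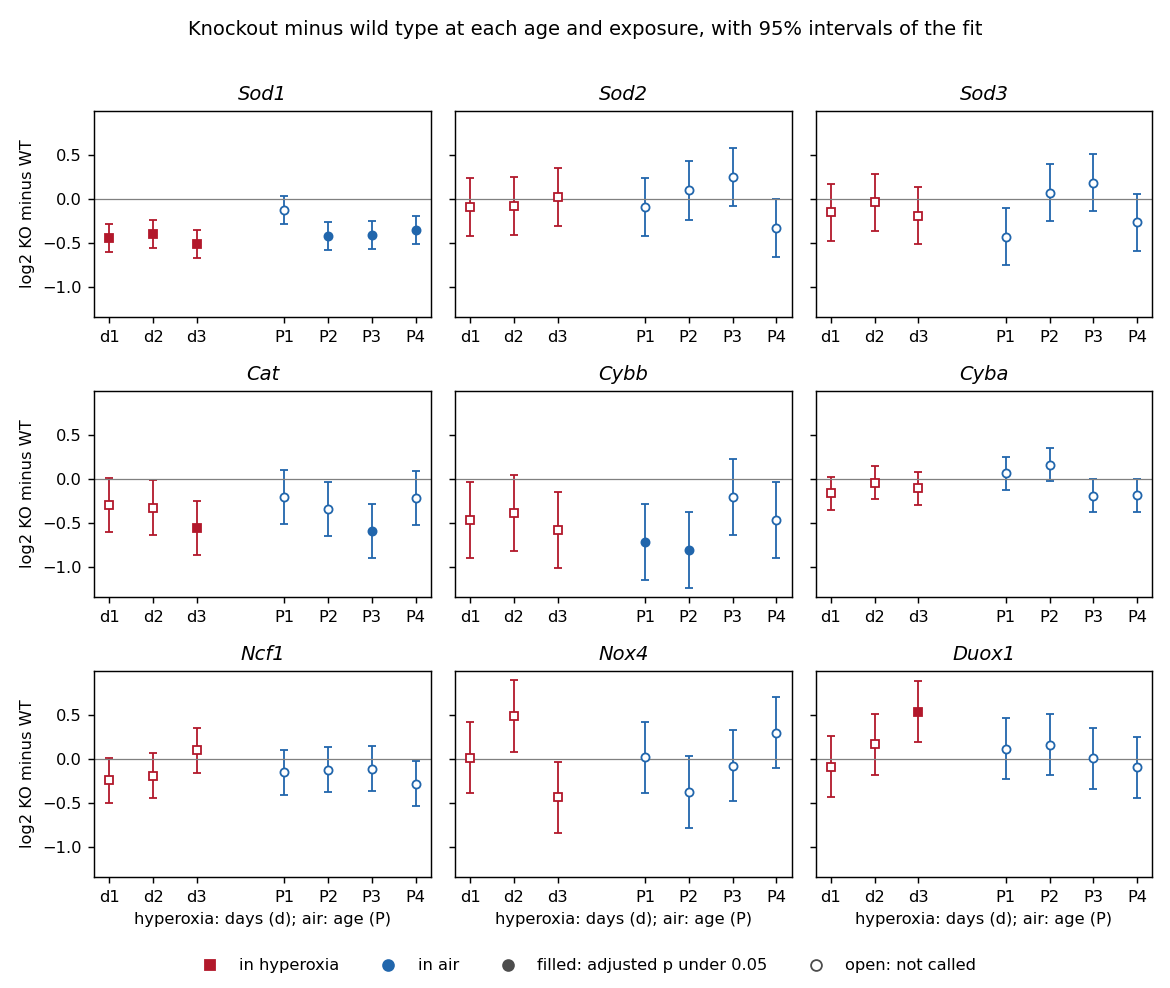
KO minus WT on the log2 scale for each of the 9 genes after 1, 2 and 3 days of hyperoxia (d, squares) and in air from P1 to P4 (circles), with 95% intervals of the fit. Filled symbols passed an adjusted p under 0.05. Sod1 lies below 0 throughout, filled everywhere but at P1, and Cat and Cybb lie below 0 with fewer filled symbols.

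In all, 3 of 9 members were called lower and 0 higher in KO in hyperoxia over the 3 days (Sod1, Cat and Cybb), where 12.5% of all genes were called, 6.30% higher and 6.18% lower. In air 4 of 9 were lower and 0 higher (those and Ncf1), where 29.0% were called, 14.5% higher and 14.4% lower. By single days of hyperoxia, 1 member was called at day 1 (2.96% of all genes), 1 at day 2 (5.13%) and 3 at day 3 (9.82%). By ages in air, 1 was called at P1 (6.78%), 2 at P2 (13.1%), 2 at P3 (21.6%) and 1 at P4 (0.726%). The members' median was -0.11 in both exposures, beside 0.0064 in hyperoxia and 0.015 in air over all genes. Removers gave 2 of 4 lower in both, and producers 1 of 5 in hyperoxia and 2 of 5 in air.

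With age in air, Nox4 rose and Ncf1 fell in both genotypes. KO values of Nox4 were 8.95, 8.61 and 8.77 at P1, 8.61, 9.20 and 8.18 at P2, 9.74, 9.50 and 9.64 at P3 and 10.12, 9.64 and 9.85 at P4. WT values were 8.60, 8.92 and 8.77 at P1, 8.59, 9.16 and 9.36 at P2, 9.75, 9.74 and 9.63 at P3 and 9.61, 9.71 and 9.40 at P4. P3 and P4 lungs were above all P1 lungs in both genotypes. Nox4 at P4 exceeded P1 by 1.10 in KO (limma adjusted p = 0.000111) and by 0.82 in WT (SE 0.20, adjusted p = 0.00247). Both calls held in every alternative run for them. Leaving out the arrays high in other tissues was not possible for WT, where all 3 P1 arrays were among them. Of 10 smooth muscle and fibroblast markers, 4 were higher and 1 lower in KO (list median 0.25). In WT 4 were higher and 0 lower (list median 0.14). Over all genes, 8.09% were called higher and 13.5% lower in KO, and 11.2% higher and 11.3% lower in WT. Among the markers Acta2 was higher by 0.61 in KO and 0.74 in WT, and Myh11 by 1.11 and 1.17. Eln was the 1 called lower in KO (-0.46) and was not called in WT (-0.32). The part of these markers in the Nox4 result was not tested.

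Ncf1 was 7.85, 7.74 and 7.99 at P4 and 8.70, 8.39 and 8.80 at P1 in KO lungs (-0.77, limma adjusted p = 2.98e-05). In WT lungs it was 8.20, 8.11 and 8.11 at P4 and 9.03, 8.77 and 8.56 at P1 (-0.64, adjusted p = 0.000242). P4 lungs lay below all P1 lungs in both genotypes. Of 15 neutrophil markers, 1 was called lower at P4 in KO and 5 in WT, with 0 higher. Macrophage markers had 2 of 17 lower and 0 higher in KO and 2 lower and 1 higher in WT. Beside these counts, 13.5% of all genes were called lower in KO and 11.3% in WT. The part of these markers in the Ncf1 result was not tested. At P4 Sod1, Sod2 and Cyba were also called lower than at P1 in KO (-0.33, adjusted p = 0.00217; -0.51, adjusted p = 0.0211; -0.25, adjusted p = 0.0471), and Sod3 was lower in WT (-0.46, adjusted p = 0.032). The direction rests on the probe set for Sod1, where 2 of the dimmer sets gave 0.11 and 0.027, and for Sod2, where 1 of the dimmer sets gave 0.012. The Cyba call held in 9 of 18 alternative settings and the Sod3 call in 12 of 18.

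In KO this made 1 of 9 members higher and 4 lower at P4 (21.6% of all genes called, 8.09% higher and 13.5% lower), and in WT 1 higher and 2 lower (22.4% called, 11.2% higher and 11.3% lower). The KO total of 5 was 3 without replicate 3 at P1 or without replicate 2 at P4. Earlier ages gave 1 call in KO at P2 (13.3% of all genes) and 3 at P3 (12.8%), and 2 in WT at P2 (14.5%) and 4 at P3 (20.6%), each against P1. The change from P1 differed between genotypes in limma for 0 of 9 members at P2 (2.65% of all genes), P3 (12.6%) and P4 (0.0275%), with 2, 2 and 1 members at an unadjusted p under 0.05. The age and hyperoxia comparisons share the P4 air arrays, so a low P4 air value enters both, with opposite sign.

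Set side by side over the 14 groups, the removers and producers varied by similar amounts. The span from the lowest to the highest group mean was 0.68 for Sod1, 1.43 for Sod2, 1.26 for Sod3 and 1.24 for Cat, and 0.97 for Cybb, 0.68 for Cyba, 0.92 for Ncf1, 1.63 for Nox4 and 0.53 for Duox1. In the order of groups by level, most neighbours overlapped, 12 of 13 for 7 genes, 13 of 13 for Duox1 and 10 of 13 for Sod1. KO lungs after 3 days of hyperoxia were the highest group for Sod2 and Duox1 and the lowest for Sod1 and Cat. WT lungs after 3 days of hyperoxia were the highest for Sod3 and Cyba. The highest group was KO after 2 days of hyperoxia for Nox4, WT after 1 day of hyperoxia for Cybb, and WT at P1 for Ncf1.

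The mean deviation from each gene's 42-array mean summarises the sets, and is a description with no test. For the 4 removers it was 0.08 in KO and 0.39 in WT after 3 days of hyperoxia, against -0.34 in KO and -0.05 in WT in air at P4. For the 5 producers it was 0.15 in KO and 0.25 in WT after 3 days of hyperoxia, against -0.15 in KO and close to 0 in WT (-7.48e-05) in air at P4. Both sets were thus higher in hyperoxia than in air at that age in both genotypes. Removers minus producers was lowest in KO after 2 days of hyperoxia (-0.21) and in KO in air at P4 (-0.19). It was highest in KO in air at P2 (0.23), WT in air at P2 (0.19) and WT in air at P1 (0.18). Single lungs of these highest groups ran from 0.07 to 0.40, -0.03 to 0.49 and 0.12 to 0.22, so their order lies within the spread. All 3 arrays of both WT groups, and replicates 1 and 3 of the KO group, were high in other tissues.

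**Figure D5:**
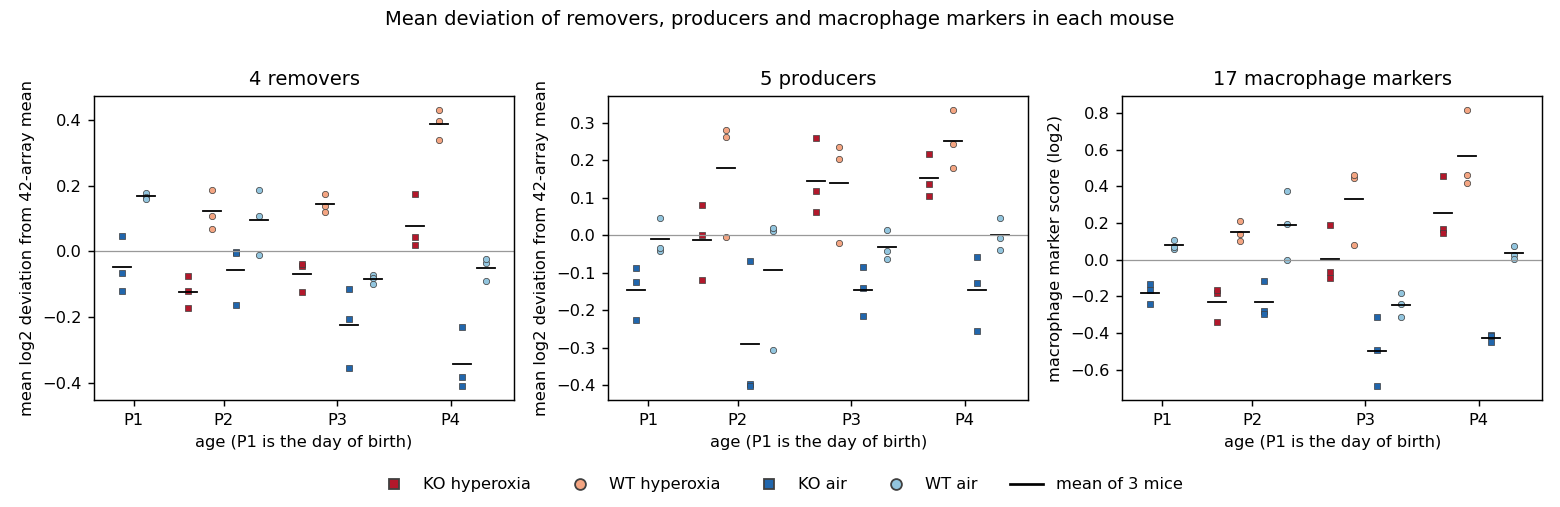
Mean log2 deviation from the 42-array mean for the 4 removers and the 5 producers in each mouse (points), by age. For the 17 macrophage markers the same score is shown less its 42-array median. Bars are group means of 3 mice. Groups within an age run KO hyperoxia, WT hyperoxia, KO air and WT air from the left. All 3 scores are higher in hyperoxia than in air at P4 in both genotypes, and the KO points lie mostly below the WT points.

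Genes whose products work with the members were counted as lists written from general knowledge. Of 8 measured further producers and partners of the oxidases, 1 was higher in hyperoxia in KO and 2 in WT over the 3 days. The list medians were 0.0014 and 0.01. Over all genes, 13.5% were called higher in KO and 14.4% in WT. Ncf4, another cytosolic subunit of the phagocyte oxidase, averaged 8.61 in KO hyperoxia lungs and 8.07 in KO air lungs (0.54, limma adjusted p = 3.35e-05), and 8.90 in WT hyperoxia lungs and 8.33 in WT air lungs (0.57, adjusted p = 9.33e-06). Xdh, the xanthine oxidoreductase that can make superoxide, was called in WT (0.40, adjusted p = 0.0425). At day 3 Xdh was 1.21 higher in KO (adjusted p = 0.00031) and 0.83 higher in WT (adjusted p = 0.0118).

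Of the genes that supply the dismutases with metal, an importer had the smallest p. Slc39a14, which carries manganese, zinc and iron into cells, averaged 9.91 in KO lungs after 3 days of hyperoxia and 7.72 in KO lungs in air at P4 (2.19, SE 0.16, limma adjusted p = 2.39e-12). The WT averages were 9.72 after 3 days of hyperoxia and 7.80 in air (1.92, SE 0.16, adjusted p = 3.52e-11). Its relative Slc39a8 was higher by 0.67 in KO (adjusted p = 0.000453) and 0.48 in WT (adjusted p = 0.011). Over the 3 days, 3 of 9 metal genes were higher and 1 lower in KO (list median 0.11). In WT 2 were higher and 0 lower (list median 0.03). Beside these, 13.5% of all genes were called higher and 7.28% lower in KO, and 14.4% and 9.53% in WT. The metal gene lower in KO was Atp7b, a copper-exporting pump (-0.31, limma adjusted p = 0.00106).

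Between the genotypes, 6.18% of all genes were called lower and 6.30% higher in KO in hyperoxia, and 14.4% lower in air. The metal genes had 2 of 9 lower and 1 higher in hyperoxia, and 4 of 9 lower in air with a list median of -0.10. In air these were Slc40a1, the iron exporter (-0.57, limma adjusted p = 3.88e-05), the copper pump Atp7a (-0.24, adjusted p = 0.00757), Ccs, which loads copper into SOD1 (-0.18, adjusted p = 0.008), and the copper importer Slc31a1 (-0.15, adjusted p = 0.0354). Slc40a1 was lower in hyperoxia too (-0.53, adjusted p = 0.00129). Ncf4 was lower in KO in hyperoxia (-0.30, adjusted p = 0.0251) and in air (-0.27, adjusted p = 0.00856), and Rac1, the small GTPase that activates the oxidase, was higher (0.16 and 0.15).

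Genes of the peroxisome, where catalase resides, were called in both directions. Of 17 measured, hyperoxia over the 3 days had 1 higher and 1 lower in KO (20.8% of all genes called) and 2 higher and 3 lower in WT (23.9% of all genes), with a WT list median of -0.01. At day 3, where Cat fell in KO, 3 of the 17 were higher and 0 lower in KO (list median -0.05). At that day 31.7% of all genes were called in KO. Among the 3 peroxisomal genes were Pex14, part of the import channel (0.31, limma adjusted p = 0.0053), and Pex11a, which acts in peroxisome division (0.28, adjusted p = 0.0399). KO against WT gave 1 higher and 1 lower in hyperoxia (12.5% of all genes called) and 1 higher and 5 lower in air (29.0% of all genes, list median -0.04), and the one higher was Pex5, the import receptor (0.21 and 0.26).

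Over the 42 arrays, which share the 14 groups and their differences, the genes whose levels followed each member most closely by Pearson's r were Tmem205 (0.890), Csf1r (0.882) and Gstm1 (0.866) for Sod1. Sod2 went with Rab20 (0.918), Mrps18b (0.914) and Adam8 (0.910), and Sod3 with Cebpd (0.877), Cldn4 (0.867) and Tbc1d2 (0.860). Cat went with Kbtbd7 (0.878), Maob (0.843) and Car8 (0.836). The producers were followed by Pik3ap1 (0.849), Treml4 (0.842) and Cyb561a3 (0.811) for Cybb, by Ctsz (0.913), Plek (0.885) and Arpc4 (0.883) for Cyba, and by Liph (0.828), Plekhb2 (0.819) and Cdh1 (0.817) for Ncf1. Nox4 was followed by Tpm4 (0.912), Cd34 (0.897) and Chn1 (0.895), and Duox1 by Cphx3 (0.822), Hcn3 (0.813) and Mpp3 (0.811). Among the members themselves the closest pairs were Sod2 with Sod3 (0.83) and Sod1 with Cat (0.70), and Sod2 ran against Cat (-0.60). These values describe the arrays at hand.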

How the data were processed

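Whole-lung RNA of 42 newborn mice was measured on 42 single-colour Affymetrix arrays, 1 mouse per array, in 14 groups of 3 taken from the sample titles. The deposited values are log2 expression levels per probe set, which the authors made with GCOS and RMA per the submitters' processing notes (no versions stated). RMA corrects background, brings arrays to 1 distribution and summarises probes, so a shift common to all genes is removed. Detection calls and hybridisation batches were not used here.

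Of 45101 probe sets, 34958 had 1 gene symbol, 932 several and 9211 none in the probe annotation; only the first kind was tested, with the probe set of highest 42-array mean for each gene. This left 18194 genes, of which 18033 matched GRCm38.p6 by Entrez number and 0 changed symbol. One limma model (version 3.58.1, R 4.3.3, data handled with the package data.table, 1.17.8) gave every group its own mean across all 42 arrays, with 28 residual degrees of freedom, or 31.4 after moderation. In each of 30 contrasts the two-sided p was adjusted by the Benjamini-Hochberg method over the 18194 genes, and 0.05 was the threshold for a call. Values are log2 differences with the SE of the fit; the number of arrays limits precision. Probe sets were also tested singly, adjusted over all with 1 symbol. Figures were drawn with Python 3.11.15 and matplotlib 3.10.9, and the fit was tested on simulated data.

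All 9 members are named in every comparison, at most 4 called genes of smallest p per list and comparison, and the 3 genes of highest Pearson r per member. The members and lists were chosen with earlier results of these data known. Marker lists were for macrophages, neutrophils, leukocytes and tissues a lung sample can carry. List scores are mean deviations from 42-array means, less the median of that score over the 42 arrays. Alternatives were cyclic loess, a trended robust fit, array weights, the upper 60 percent of genes by level, other probe sets, the contrast's own arrays, a replicate block, sex, leukocyte, macrophage and other-tissue scores as covariates, leaving out arrays high in other tissues and leaving out each array. The macrophage covariate and the single-day repeats were added after seeing the data.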

Additional observations from a re-analysis of the deposited data

Results flagged for a closer look

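For 3 results all 3 arrays of one genotype lay above the mean of that genotype's comparison group and all 3 arrays of the other lay below theirs, while the interaction did not pass. Each array is a different pup, and single values of the groups can overlap, as they did for Sod1 in WT. The Sod1 response to 3 days of hyperoxia differed between KO and WT by -0.15 (limma adjusted p = 0.521). For Cybb, the change in air from P1 to P3 differed by 0.51 (limma adjusted p = 0.310), and that from P1 to P4 by 0.24 (limma adjusted p = 0.833).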

How the results depend on the processing

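Of the members called, hyperoxia over 3 days gave 2 in WT with the macrophage score as covariate (5 as reported), and in KO 1 with that score, 2 with the other-tissue scores and 3 without the arrays high in other tissues (5 as reported). KO against WT gave 1 with the macrophage score in hyperoxia and 5 with array weights (3 as reported), and 1 with the macrophage score in air (4 as reported). Leaving out each array gave 5 to 6 in KO hyperoxia, 4 to 5 in WT hyperoxia, 0 to 0 for the genotype difference in the effect, 3 to 3 for KO against WT in hyperoxia and 3 to 4 in air. For P4 against P1 it gave 3 to 5 in KO (3 without replicate 3 at P1 or replicate 2 at P4) and 2 to 3 in WT.

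Signs turned, where the reported or the alternative value was called, for Ncf1 in KO against WT in air (0.026 with other-tissue scores, 0.014 with the macrophage score), and with other probe sets for Sod1 at P4 against P1 in KO (0.11 and 0.027), Sod1 in KO against WT at P3 (0.046), Sod2 at P4 against P1 in KO (0.012) and Sod2 in KO against WT at P3 (-0.46); the cause was not tested. Sod2 and Sod3 at day 3, Cat in KO at day 3, and Nox4 and Ncf1 with age kept their calls in all alternatives run. For age in WT the arrays high in other tissues could not be left out, as all 3 at P1 were high. At day 3 in WT leaving them out kept 1 lung in each group. Of 3327 values of single members, 2915 kept direction and side of the threshold.

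Counts over all genes moved most for the genotype difference in the effect of hyperoxia (217 as reported, 985 with array weights, 442 with cyclic loess, 152 to 691 leaving out arrays). They were 1315 at the lowest for KO hyperoxia (3788 as reported), 2184 for WT hyperoxia (4356), 787 to 4530 for KO against WT in hyperoxia (2270), 1497 in air (5271), and up to 6381 for P4 against P1 in WT (4083).

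Replicate numbers did not pair mice: residuals of same-numbered arrays had a median correlation of 0.012, and 13 of 42 arrays correlated best with their own number. With the replicate block the members called were 5 in KO and 5 in WT for hyperoxia, 0 for the difference, 3 for KO against WT in hyperoxia and 3 in air, where Ncf1 no longer passed. Limits are 3 mice a group, no detection calls, no known sex or batch, and whole-lung RNA.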
